A study of Mus musculus with 9 samples.

Results

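The alcohol and aldehyde dehydrogenases of mouse liver were followed into fibrosis induced by thioacetamide (TAA), a hepatotoxin, and through the recovery from it. The 10 genes, chosen by symbol, were Adh1, Adh4, Adh5, Adh7, Aldh1a1, Aldh1b1, Aldh2, Aldh3a2, Aldh1l1 and Aldh8a1, out of 21873 genes in the expression table. All 10 had a mean of at least 0.1 FPKM, a measure of expression per gene length and per total of mapped fragments, and entered the test, which covered 14094 genes with such a mean. Livers came from male C57BL/6 mice aged 8 weeks at the start, with 3 mice in each of 3 groups. The control group had intraperitoneal saline for 8 weeks, and the TAA group had TAA at 200 mg/kg by that route at intervals of 3 days for the same time, with collection at 72 h from the last dose. The recovery group had the same 8 weeks of TAA and then 8 weeks of spontaneous recovery. Recovery mice were thus 8 weeks older at collection and controls of their age were not analysed here, so that age and recovery cannot be told apart. The depth, as estimated, was 26.8 to 35.4 M fragments in control libraries, 38.6 to 40.5 M in TAA libraries and 34.8 to 40.6 M in recovery libraries.

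Alcohol dehydrogenases oxidize alcohols such as ethanol and retinol to aldehydes with NAD+ as the acceptor, and aldehyde dehydrogenases oxidize aldehydes further to acids. The liver clears most of the ethanol that is taken up, and hepatocytes hold these enzymes in the cytosol, the mitochondria and the endoplasmic reticulum. Members of both families also act on substrates that arise in the cell, among them formaldehyde, retinaldehyde, fatty aldehydes and intermediates of folate and tryptophan metabolism.

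Levels are given as FPKM divided by a factor per library, the median of its ratios to the mean library, and can be compared between genes because they are per length. Fold changes are log2 differences of scaled FPKM + 0.1, and DEGs had an adjusted p under 0.05 and a fold change of 2 or more. Before the 0.1 was added, the factors shifted log2 differences of FPKM by -0.64 between TAA and control mice, by 0.56 between recovery and TAA mice and by -0.076 between recovery and control mice, and with it added the shift is smaller in genes of low level. After this, the median over all tested genes was 0.020, -0.010 and 0.012, respectively. Results of the first pair of comparisons depended on this scaling, so values under other scalings are also given. Overlap between groups is described with the scaling used here unless another is named. It is no test, and the share of all genes without overlap is not given here.

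**Figure D1:**
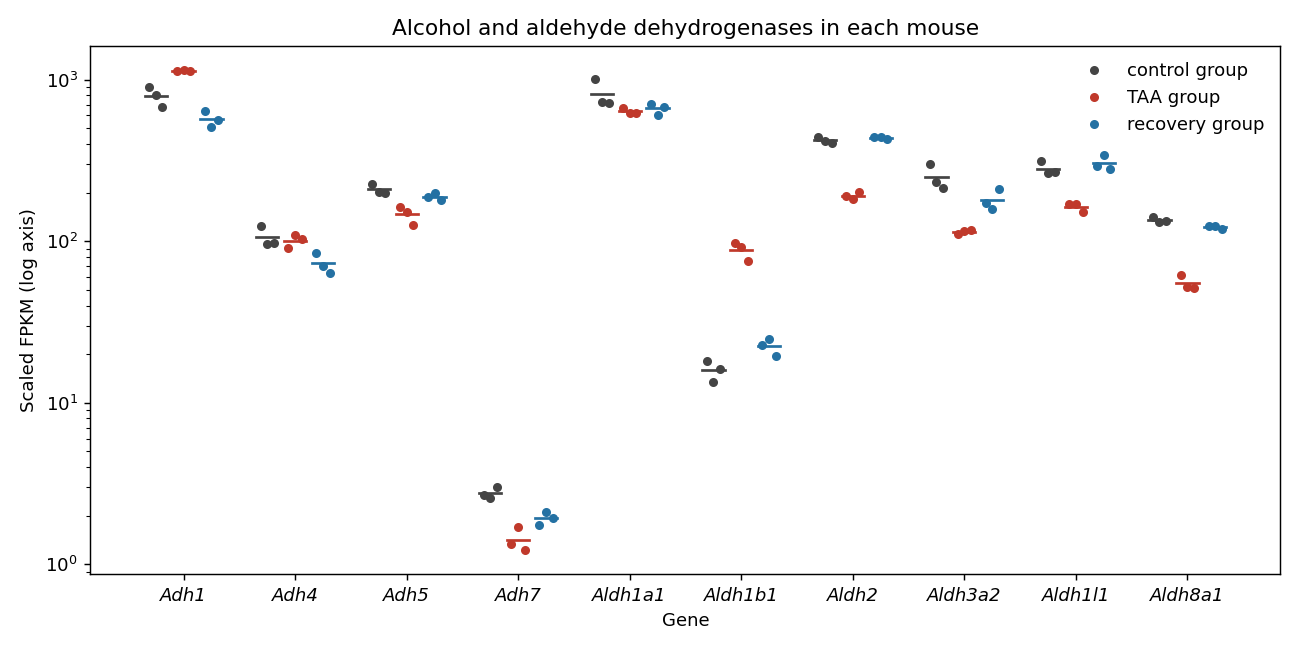
Scaled FPKM (log axis) of the 10 genes in each of the 9 mice, where points are mice and short lines are group means. Aldh1b1 lies at 75.02 to 97.6 in TAA mice, above all control and recovery mice, and Aldh2 at 182 to 200.4, below all of them, although the latter difference nearly closes with quantile normalization.

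In control mice, levels ran from 2.59 to 3.03 for Adh7 to 719.7 to 1004 for Aldh1a1. Aldh1a1 and Adh1 were the most abundant members and overlapped, followed by Aldh2. Aldh1l1, Aldh3a2 and Adh5 came next, each overlapping with its neighbour, and then Aldh8a1, Adh4 and Aldh1b1, which were apart. In TAA mice Adh1 stood alone at the top, followed by Aldh1a1 and Aldh2, then by Aldh1l1 and Adh5, which overlapped, and Aldh3a2. There Aldh1b1 overlapped with Adh4 and lay above Aldh8a1. In recovery mice the order of the means was that of control mice, with Adh5 and Aldh3a2 exchanged, and these overlapped, as did Aldh1a1 and Adh1. Among all genes, the median rank of Aldh1b1 was 2733 in control, 365 in TAA and 2043 in recovery mice, and that of Adh1 was 73, 17 and 98.

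TAA and control mice were compared to find what differed in the fibrotic liver. Aldh1b1 was the only one of the 10 genes that was a DEG with higher expression in TAA-fibrotic mice, where 17.0% of all tested genes were, and its call was made under every scaling tried, while Adh1 was a further DEG with FPKM as deposited and with quantile normalization, and Aldh1a1 with the latter, where 4382 and 1597 of the 14094 genes were. Aldh2, Aldh3a2 and Aldh8a1, 3 of the 10, were DEGs with lower expression, where 8.02% of all tested genes were, but 0 of these calls were made with FPKM as deposited, where 421 genes in all were lower. By the adjusted p alone, 2 were higher and 6 lower, against 28.2% and 26.3% of all genes. As deposited, Adh1, Adh4 and Aldh1b1 were higher by it, and Aldh2, Aldh3a2 and Aldh8a1 lower. With quantile normalization, Adh1, Adh4, Adh5, Aldh1a1 and Aldh1b1 were higher by it, and Adh7 and Aldh8a1 lower. The share of all genes by adjusted p alone is not given for either of these, so these members cannot be set against it. The median of all genes was 0.63 as deposited and -0.042 with quantile normalization. The median log2 fold change of the 10 genes was -0.65 and turned to 0.25 with quantile normalization, and it was -0.0079 with FPKM as deposited. In bulk tissue, fewer cells of a type and less RNA per cell cannot be told apart.

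Aldh1b1 and Aldh2 encode mitochondrial enzymes that oxidize acetaldehyde, for which ALDH2 is the main one. Aldh1b1 (ENSMUSG00000035561, chromosome 4 from 45799022 to 45804604 in GRCm38) gave a scaled FPKM of 18.1, 13.5 and 16.3 in control mice, 97.6, 91.7 and 75.02 in TAA mice and 22.9, 24.7 and 19.4 in recovery mice. TAA mice were far above the other mice, and recovery mice lay above control mice without overlap. Aldh1b1 rose by 2.46 on the log2 scale in TAA mice (standard error 0.14, limma with Benjamini-Hochberg adjustment, adjusted p = 1.43e-05, higher in 3 of 3 TAA mice). It was 3.03 with quantile normalization and 3.09 with FPKM as deposited, and it was called in each of 19 alternatives. Its estimated fragments numbered from 922 to 11696 per library.

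Aldh2 (ENSMUSG00000029455, chromosome 5 from 121566027 to 121593824) gave a scaled FPKM of 442, 416 and 403 in control mice, 191, 182 and 200.4 in TAA mice and 442, 441 and 429 in recovery mice. TAA mice were the lowest, and recovery mice overlapped with control mice. As deposited, recovery mice (389 to 398) were above control mice (354 to 365). Aldh2 fell by 1.14 in TAA mice (standard error 0.091, limma with Benjamini-Hochberg adjustment, adjusted p = 5.57e-05, lower in 3 of 3 TAA mice). The value was -0.95 with upper-quartile scaling, -0.77 with factors from genes of at least 10 FPKM, -0.50 with FPKM as deposited and -0.020 with quantile normalization, all short of a fold change of 2 and the last without an adjusted p under 0.05. The ratio of Aldh2 to Aldh1b1, which no factor per library alters, was 24.4, 30.7 and 24.7 in control mice, 1.95, 1.99 and 2.67 in TAA mice and 19.3, 17.9 and 22.1 in recovery mice. The ratio was lowest in TAA mice, and recovery mice stayed below control mice without overlap.

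Aldh8a1 encodes 2-aminomuconic semialdehyde dehydrogenase, an enzyme of the kynurenine pathway of tryptophan degradation. Aldh8a1 (ENSMUSG00000037542, chromosome 10 from 21377291 to 21396585) gave a scaled FPKM of 141, 131 and 134 in control mice, 61.8, 52.4 and 51.2 in TAA mice and 125, 123 and 119 in recovery mice. With the scaling used here no groups overlapped, and recovery mice were just below control mice. As deposited, recovery 1 (112.22) lay above control 2 (112.15). The adjusted p between these groups was 0.237 by limma. Aldh8a1 fell by 1.30 in TAA mice (standard error 0.10, limma with Benjamini-Hochberg adjustment, adjusted p = 4.12e-05, lower in 3 of 3 TAA mice), and the value was -0.94 with factors from genes of at least 10 FPKM, -0.66 as deposited and -0.64 with quantile normalization.

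Aldh3a2 encodes the fatty aldehyde dehydrogenase of the endoplasmic reticulum, which acts on long-chain aldehydes. Aldh3a2 (ENSMUSG00000010025, chromosome 11 from 61223417 to 61267464) gave a scaled FPKM of 302, 234 and 214 in control mice, 112, 116 and 117 in TAA mice and 171, 158 and 211 in recovery mice. With the scaling used here TAA mice were the lowest and close to each other, and recovery 3 came near the lowest control mouse. As deposited, recovery 3 (191.7) lay above control 3 (187.8). Recovery 2 (141.0) then lay below all TAA mice (143.6 to 160.7). Aldh3a2 fell by 1.11 in TAA mice (standard error 0.13, limma with Benjamini-Hochberg adjustment, adjusted p = 3.62e-04, lower in 3 of 3 TAA mice). Without control 1, the highest control mouse, the value was -0.96 and the gene was not a DEG. It also missed the fold criterion with upper-quartile scaling (-0.92), factors from genes of at least 10 FPKM (-0.75), FPKM as deposited (-0.47) and quantile normalization (-0.29, without an adjusted p under 0.05).

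Aldh1l1 encodes 10-formyltetrahydrofolate dehydrogenase of folate metabolism. Its scaled FPKM was 314, 262 and 268 in control mice, 170.3, 169 and 152 in TAA mice and 293, 342 and 279 in recovery mice. TAA mice were the lowest, and recovery and control mice overlapped. The log2 fold change in TAA mice was -0.78 (standard error 0.11, limma with Benjamini-Hochberg adjustment, adjusted p = 6.62e-04, lower in 3 of 3 TAA mice), under a fold change of 2. It was -0.42 with factors from genes of at least 10 FPKM, -0.14 as deposited, without an adjusted p under 0.05, and turned to 0.20 with quantile normalization, also without one. Aldh1a1 encodes a cytosolic enzyme that makes retinoic acid from retinaldehyde, and had a scaled FPKM of 1004, 728 and 719.7 in control mice, 667, 618 and 620.0 in TAA mice and 710.0, 605 and 672 in recovery mice. With the scaling used here TAA and recovery mice were below control mice and overlapped with each other. As deposited, TAA mice (816 to 858) overlapped with control mice (623 to 830). Recovery mice (541 to 638) then overlapped with control mice and lay below TAA mice. Its log2 fold change in TAA mice of -0.35 (standard error 0.15, limma with Benjamini-Hochberg adjustment, adjusted p = 0.0906, lower in 3 of 3 TAA mice) did not pass the test and turned to 0.29 as deposited, 0.015 with factors from genes of at least 10 FPKM and 1.02 with quantile normalization. Aldh1a7 is a near-identical copy of Aldh1a1, with which reads can be shared.

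**Figure D2:**
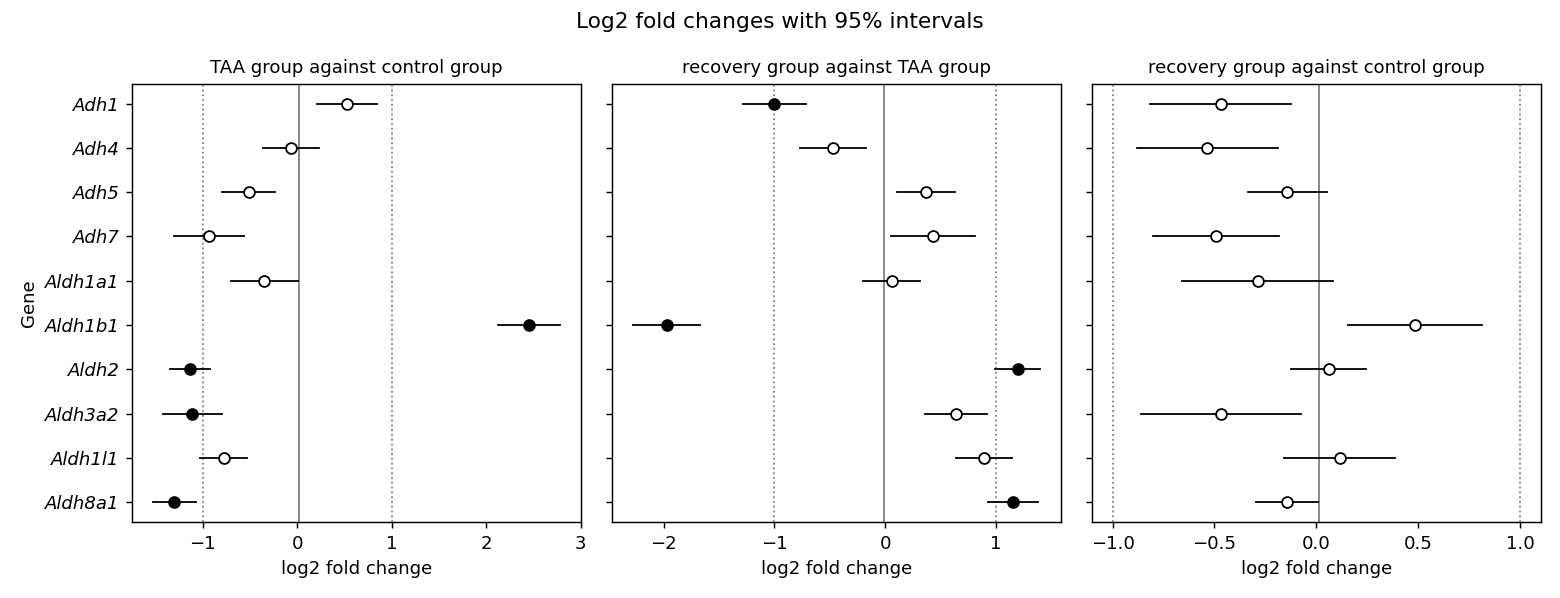
Log2 fold changes of the 10 genes in 3 comparisons, where bars are 95% intervals from limma, filled points are DEGs, the solid line is the median of all tested genes and dotted lines mark a fold change of 2, with axes that differ between panels. Filled points number 4 in the left panel and 4 in the middle panel, and with FPKM as deposited all of them but Aldh1b1 (both panels) and Adh1 (middle panel) are under a fold change of 2.

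Among the alcohol dehydrogenases, Adh1 encodes the class I enzyme that carries most of the hepatic oxidation of ethanol and also acts on retinol. Adh1 (ENSMUSG00000074207, chromosome 3 from 138260991 to 138290698) gave a scaled FPKM of 896, 798 and 672 in control mice, 1122, 1147 and 1128 in TAA mice and 639.9, 506 and 559 in recovery mice. No groups overlapped, and TAA mice were the highest and recovery mice the lowest. Its log2 fold change in TAA mice was 0.53 (standard error 0.14, limma with Benjamini-Hochberg adjustment, adjusted p = 0.0125, higher in 3 of 3 TAA mice), short of a fold change of 2, but it was 0.89 with factors from genes of at least 10 FPKM and reached 1.17 as deposited and 1.91 with quantile normalization.

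Adh5 encodes the class III enzyme, which oxidizes the glutathione adduct of formaldehyde, and had a scaled FPKM of 226, 201 and 199 in control mice, 163, 151 and 127 in TAA mice and 188, 198 and 181 in recovery mice. With the scaling used here TAA mice were the lowest, and recovery mice lay just under control mice. As deposited, TAA (174 to 210), control (172 to 187) and recovery mice (164 to 177) overlapped. The log2 fold change in TAA mice of -0.51 (standard error 0.12, limma with Benjamini-Hochberg adjustment, adjusted p = 0.00783, lower in 3 of 3 TAA mice) was -0.32 with upper-quartile scaling, -0.15 with factors from genes of at least 10 FPKM and turned to 0.12 as deposited, the last pair without an adjusted p under 0.05, and to 0.31 with quantile normalization, with one. Adh7, the class IV form, is known for retinol oxidation and expression in the stomach, and was the lowest member in each group. Its scaled FPKM was 2.70, 2.59 and 3.03 in control mice, 1.34, 1.69 and 1.22 in TAA mice and 1.76, 2.11 and 1.95 in recovery mice. With the scaling used here no groups overlapped, with TAA mice the lowest and control mice the highest. As deposited, TAA mice (1.69 to 2.24) overlapped with recovery mice (1.59 to 1.88) and with control mice (2.21 to 2.66). Adh7 had a log2 fold change of -0.93 in TAA mice (standard error 0.16, limma with Benjamini-Hochberg adjustment, adjusted p = 0.00203, lower in 3 of 3 TAA mice), which passed a fold change of 2 without TAA 2 (-1.05) and with quantile normalization (-1.37). It was -0.59 with factors from genes of at least 10 FPKM and -0.32 as deposited, where its adjusted p was no longer under 0.05. Adh4, the class II form, had 124, 95.5 and 97.7 in control mice, 90.3, 109 and 103 in TAA mice and 85.0, 69.9 and 63.8 in recovery mice. Control and TAA mice overlapped, and recovery mice were below both. As deposited, TAA mice (116 to 144) were above control mice (81.7 to 102). The log2 fold change of Adh4 in TAA mice, -0.061 (limma with Benjamini-Hochberg adjustment, adjusted p = 0.710, lower in 2 of 3 TAA mice than the control mean), was positive under the 4 other scalings, at 0.58 as deposited and 0.67 with quantile normalization, both with an adjusted p under 0.05, and also without control 1 (0.057) and without TAA 1 (0.016).

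**Figure D3:**
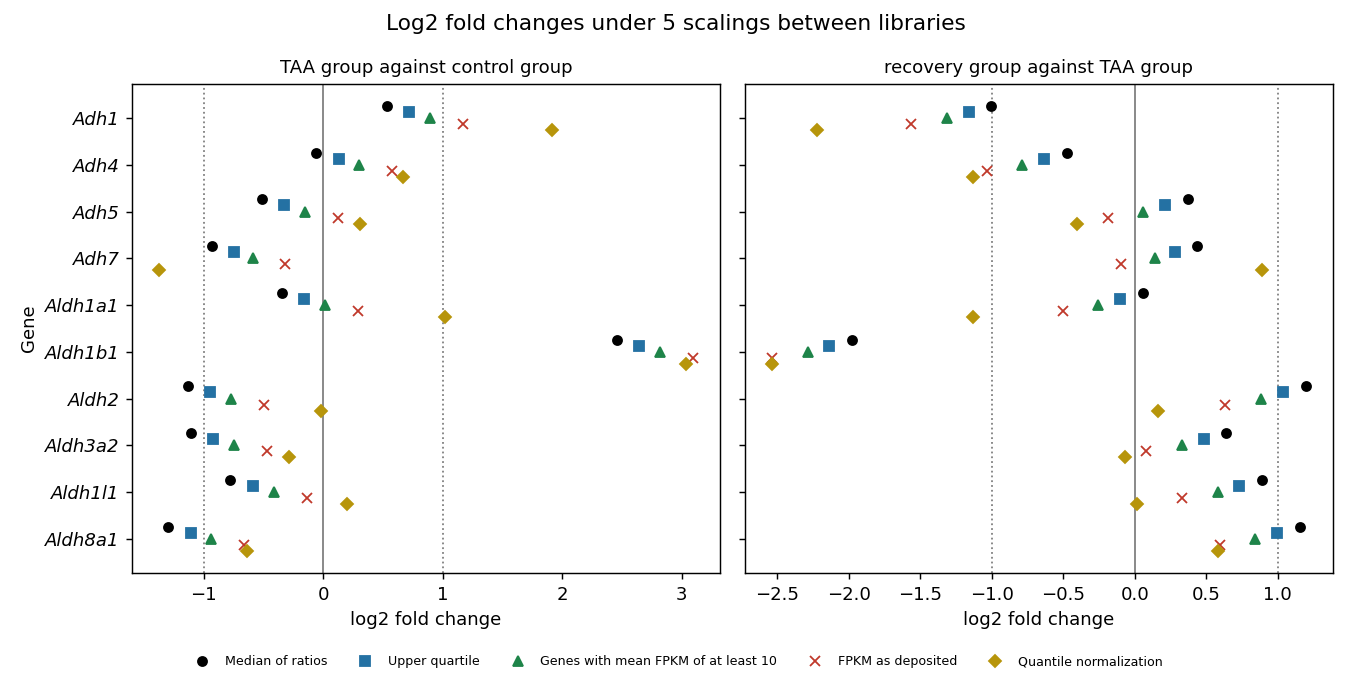
Log2 fold changes of the 10 genes between TAA and control mice (left) and between recovery and TAA mice (right) under 5 scalings, 1 marker each, with dotted lines at a fold change of 2 and axes that differ between panels. Aldh1b1 lies beyond the dotted lines under each scaling, whereas Adh4, Adh5, Aldh1a1 and Aldh1l1 (left) and Adh5, Adh7, Aldh1a1 and Aldh3a2 (right) have markers on both sides of 0.

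Recovery mice were then compared with TAA mice, to find what differed once injections had ended. Aldh2 and Aldh8a1, 2 of the 10 genes, were DEGs with higher expression in recovery, where 7.12% of all tested genes were, but 0 of the 10 were with FPKM as deposited, where 409 genes in all were. Aldh1b1 and Adh1, also 2 of the 10, were DEGs with lower expression, where 14.3% of all tested genes were. By the adjusted p alone, 5 were higher and 3 lower, against 24.5% and 26.0% of all genes. As deposited, Aldh2, Aldh1l1 and Aldh8a1 were higher by it, and Adh1, Adh4, Aldh1a1 and Aldh1b1 lower. With quantile normalization, Adh7 and Aldh8a1 were higher by it, and Adh1, Adh4, Adh5, Aldh1a1 and Aldh1b1 lower. Here too the share of all genes by adjusted p alone is not given for either of these. The median of all genes was -0.55 as deposited and 0.035 with quantile normalization. The median of the 10 genes, 0.40, turned to -0.14 with FPKM as deposited and -0.23 with quantile normalization. The same TAA mice enter both comparisons.

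Aldh1b1 fell by 1.97 on the log2 scale in recovery mice (standard error 0.13, limma with Benjamini-Hochberg adjustment, adjusted p = 2.63e-05, lower in 3 of 3 recovery mice) and was called in each of 19 alternatives. Adh1 fell by 1.002 (standard error 0.12, limma with Benjamini-Hochberg adjustment, adjusted p = 3.93e-04, lower in 3 of 3 recovery mice), which is at the fold criterion itself. Without TAA 2 the value was -0.99, without recovery 2 it was -0.92 and without recovery 3 it was -0.99, so that Adh1 was not a DEG in these fits. With FPKM as deposited it was -1.56 and with quantile normalization -2.22. Adh4 had a log2 fold change of -0.47 (standard error 0.13, limma with Benjamini-Hochberg adjustment, adjusted p = 0.0166, lower in 3 of 3 recovery mice), and it was -0.79 with factors from genes of at least 10 FPKM, -1.03 as deposited and -1.13 with quantile normalization.

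Aldh2 rose by 1.20 in recovery mice (standard error 0.088, limma with Benjamini-Hochberg adjustment, adjusted p = 4.05e-05, higher in 3 of 3 recovery mice), with 0.88 under factors from genes of at least 10 FPKM, 0.63 as deposited and 0.16 under quantile normalization, the last without an adjusted p under 0.05. Aldh8a1 rose by 1.16 (standard error 0.10, limma with Benjamini-Hochberg adjustment, adjusted p = 6.81e-05, higher in 3 of 3 recovery mice), with 0.996 under upper-quartile scaling, 0.84 under factors from genes of at least 10 FPKM, 0.59 as deposited and 0.58 under quantile normalization. Under a fold change of 2 were Aldh1l1 at 0.89 (standard error 0.11, limma with Benjamini-Hochberg adjustment, adjusted p = 4.04e-04, higher in 3 of 3 recovery mice) and Aldh3a2 at 0.64 (standard error 0.12, limma with Benjamini-Hochberg adjustment, adjusted p = 0.00301, higher in 3 of 3 recovery mice), but Aldh1l1 was at 0.58 with factors from genes of at least 10 FPKM, 0.33 as deposited and 0.013 with quantile normalization, the last without an adjusted p under 0.05. Aldh3a2 was at 0.33 with factors from genes of at least 10 FPKM, 0.079 as deposited and -0.065 with quantile normalization, all without one. Adh5 was at 0.37 (standard error 0.11, limma with Benjamini-Hochberg adjustment, adjusted p = 0.0265, higher in 3 of 3 recovery mice) but at 0.21 with upper-quartile scaling, 0.058 with factors from genes of at least 10 FPKM and -0.19 as deposited, all without an adjusted p under 0.05. With quantile normalization it turned to -0.40, with an adjusted p under 0.05. Adh7, at 0.43 (standard error 0.16, limma with Benjamini-Hochberg adjustment, adjusted p = 0.0576, higher in 3 of 3 recovery mice), and Aldh1a1, at 0.059 with overlap between the groups (standard error 0.11, limma with Benjamini-Hochberg adjustment, adjusted p = 0.680, higher in 2 of 3 recovery mice), did not pass the adjusted test and had the opposite sign as deposited, at -0.10 and -0.50, the latter with an adjusted p under 0.05. Aldh1a1 also turned with upper-quartile scaling (-0.10) and with factors from genes of at least 10 FPKM (-0.25), where Adh7 was at 0.28 and 0.14. With quantile normalization both had an adjusted p under 0.05, at 0.89 and -1.13.

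Recovery mice were last compared with control mice, to find what still differed after 8 weeks without TAA. By limma, 0 of the 10 were DEGs, where 0.582% of all tested genes were higher and 0.412% lower, and 0 had an adjusted p under 0.05, where 1.33% were higher and 1.38% lower. An unadjusted p under 0.05 was found for 5 of the 10, 1 higher and 4 lower, and for 3242 of the 14094 genes (23.0%). The log2 fold changes of the 5 were 0.48 for Aldh1b1, -0.47 for Adh1, -0.53 for Adh4, -0.49 for Adh7 and -0.47 for Aldh3a2. The smallest adjusted p was that of Adh7 (standard error 0.13, limma with Benjamini-Hochberg adjustment, adjusted p = 0.0951, lower in 3 of 3 recovery mice). Aldh2 at 0.060 and Aldh1l1 at 0.11 overlapped between recovery and control mice, but Aldh2 did not as deposited. The part of the TAA change that was left in recovery, the gap of recovery mice to the control mean over that of the TAA mean, both as log2 of scaled FPKM + 0.1, was 19.7% ± 7.18 (SD, n = 3) for Aldh1b1. It was 42.2% ± 19.6 for Aldh3a2, 11.0% ± 2.63 for Aldh8a1 and -5.27% ± 2.14 for Aldh2, where a negative value lies beyond the control mean. As deposited, it was 83.1% for Aldh3a2 and -27.4% for Aldh2, and that of Aldh2 was -9.43% with upper-quartile scaling, -14.1% with factors from genes of at least 10 FPKM, -8.83% without control 1 and -2.55% without control 3. These 4 genes were the DEGs between TAA and control mice, so they were selected on the denominator.

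The 4 Adh genes summed to 1106 ± 138 (SD, n = 3) in control mice, 1381 ± 24.4 in TAA mice and 832 ± 73.4 in recovery mice. The log2 difference of this sum, 0.33 between TAA and control mice, was 0.97 as deposited, 0.52 with upper-quartile scaling and 0.69 with factors from genes of at least 10 FPKM, and that of -0.74 between recovery and TAA mice was -1.30, -0.90 and -1.05. The sum of the 6 Aldh genes was 1919.5 ± 261, 1248 ± 44.5 and 1729.5 ± 34.3, but its log2 difference of -0.61 between TAA and control mice turned to 0.025 as deposited and was -0.25 with factors from genes of at least 10 FPKM, and that of 0.47 between recovery and TAA mice turned to -0.090 and was 0.16. The percent of the Adh sum made up by Adh1 was 71.8, 72.7 and 69.2 in control mice, 81.5, 81.4 and 83.0 in TAA mice and 69.9, 65.2 and 69.4 in recovery mice. Its share was highest in TAA mice, and control and recovery mice overlapped. The percent of the Aldh sum made up by Aldh2 was 19.9, 23.3 and 23.0 in control mice, 14.7, 14.8 and 16.5 in TAA mice and 25.1, 26.0 and 24.8 in recovery mice. TAA mice were the lowest and recovery mice the highest. Aldh1b1 took 0.835%, 7.05% and 1.29% on average. A factor per library does not alter these shares. Both sums and the shares of Adh1 and Aldh2 were compared between groups in 12 two-sided exact permutation tests of 3 against 3 mice, which cannot go below 0.1. The exact p was 0.1 (0.12 after Benjamini-Hochberg adjustment over the 12) in 10 tests, 0.2 (0.218 adjusted) for the Aldh sum and 0.3 (0.3 adjusted) for the share of Adh1, both between recovery and control mice. The ratio of Adh1 to Aldh2 was 1.87 ± 0.183 (SD, n = 3), 5.93 ± 0.331 and 1.30 ± 0.151 in control, TAA and recovery mice.

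**Figure D4:**
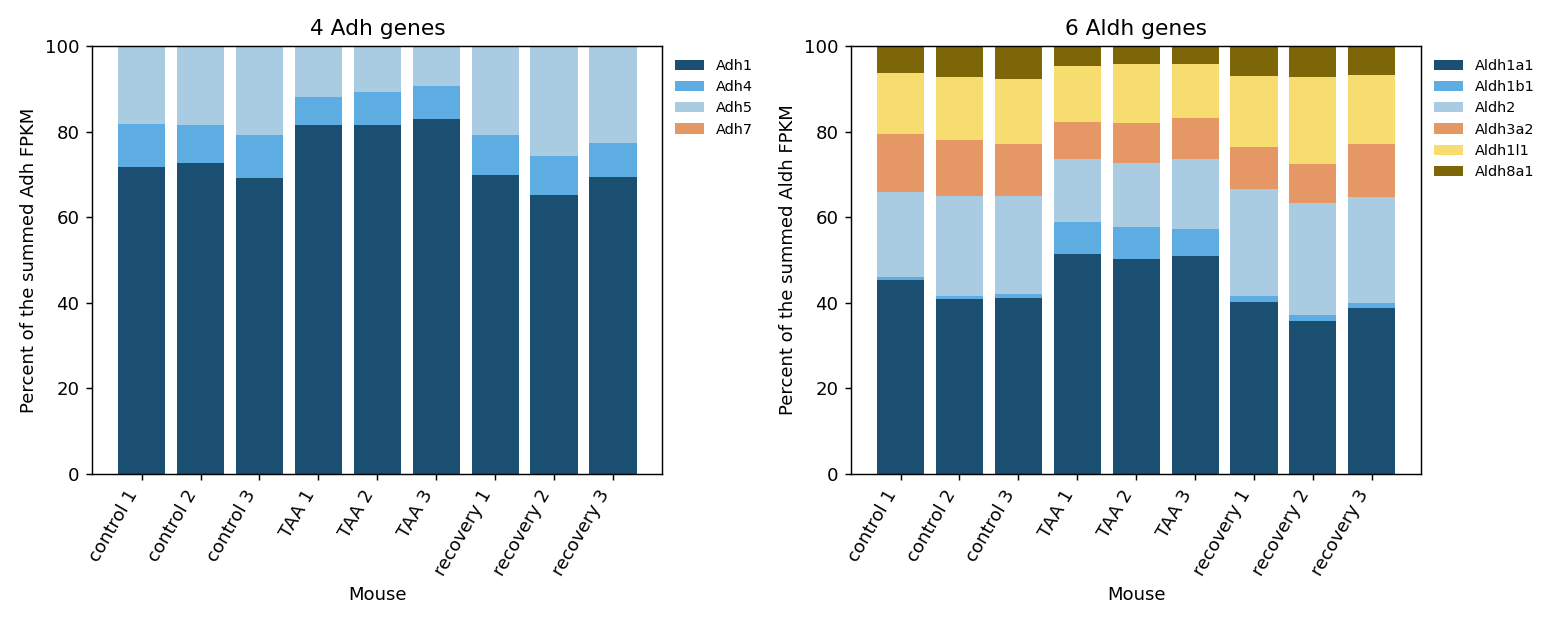
Percent of the summed FPKM of the 4 Adh genes (left) and of the 6 Aldh genes (right) that each gene makes up, 1 stacked bar per mouse. Adh1 takes 81.4 to 83.0% of the Adh sum in TAA mice and Aldh1b1 6.17 to 7.52% of the Aldh sum, and Adh7 is too thin to be seen.

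The 4 Adh genes lie on the plus strand within 244.3 kb of chromosome 3 (GRCm38, 138211200 to 138455499, counted from the start of Adh7 in the expression table, whereas the GENCODE annotation starts Adh7 at 138217760), in the order Adh7, Adh1, Adh6a, Adh6b, Adh4 and Adh5, and the 6 Aldh genes lie on 6 other chromosomes. Of the neighbours Adh7 and Adh1, the ratio of Adh1 to Adh7 was 222 to 332 in control mice, 677 to 921 in TAA mice and 240.0 to 363 in recovery mice. Annotated genes overlap with Adh1, Adh7, Aldh1a1, Aldh2 and Aldh1l1, and as the use of strand in counting is not given in the sources used here, their reads cannot be told apart. For Aldh1l1, strand would not part all of them, as Gm45901 and Gm44236 lie on its own strand. RefSeq promoters of GRCm38.p6, from 250 bases before to 50 after a start, were found for 9 of the 10 members (11 windows), all but Aldh2. These starts need not be those of the loci in the expression table. The window of Adh1 lies inside its locus, which starts at 138260991. That of Aldh1l1 (90550543 to 90550842) lies inside a locus that starts at 90486427. Shown 5′ to 3′, with motif matches in capitals, are those of the neighbours Adh1 (chr3:138277335-138277634, plus strand) and Adh7 (chr3:138217523-138217822, plus strand), and of the members with the largest rise and, with the scaling used here, the largest fall in TAA mice (with quantile normalization that of Adh7 was larger), Aldh1b1 (chr4:45798772-45799071, plus strand) and Aldh8a1 (chr10:21377050-21377349, plus strand).
Adh1: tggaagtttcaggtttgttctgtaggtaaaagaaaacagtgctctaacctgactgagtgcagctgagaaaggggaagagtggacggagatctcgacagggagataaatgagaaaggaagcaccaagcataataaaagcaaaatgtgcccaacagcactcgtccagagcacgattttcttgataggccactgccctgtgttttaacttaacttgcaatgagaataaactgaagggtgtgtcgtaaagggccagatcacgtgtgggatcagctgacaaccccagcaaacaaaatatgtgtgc
Adh7: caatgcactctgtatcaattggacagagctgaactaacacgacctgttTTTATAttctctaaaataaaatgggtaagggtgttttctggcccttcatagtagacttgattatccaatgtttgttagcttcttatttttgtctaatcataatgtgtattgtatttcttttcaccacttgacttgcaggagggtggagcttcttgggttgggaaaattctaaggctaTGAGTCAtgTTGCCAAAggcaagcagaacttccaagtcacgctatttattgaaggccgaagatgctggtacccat
Aldh1b1: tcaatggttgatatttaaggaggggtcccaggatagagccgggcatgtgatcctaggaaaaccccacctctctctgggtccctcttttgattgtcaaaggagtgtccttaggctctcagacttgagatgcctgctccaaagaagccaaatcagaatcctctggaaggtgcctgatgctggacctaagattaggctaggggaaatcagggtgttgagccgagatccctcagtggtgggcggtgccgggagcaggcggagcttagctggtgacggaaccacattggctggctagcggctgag
Aldh8a1: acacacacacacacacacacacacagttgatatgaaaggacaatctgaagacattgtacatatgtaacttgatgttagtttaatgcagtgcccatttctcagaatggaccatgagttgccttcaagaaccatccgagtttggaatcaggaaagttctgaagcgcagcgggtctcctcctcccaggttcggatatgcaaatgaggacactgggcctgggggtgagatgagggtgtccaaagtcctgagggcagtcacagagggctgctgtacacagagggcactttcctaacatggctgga

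Both strands were searched for the TATA box (TATAAA), an AP-1 motif (TGANTCA), the core of the antioxidant response element (TGACNNNGC), an HNF4 motif (CAAAGTCCA) and a C/EBP motif (TTGCNNAA). Of 32851 promoters of this length, 13.6%, 7.81%, 12.4%, 0.475% and 10.8% held them, and a TGANTCA match can lie within a TGACNNNGC match. The Adh7 promoter held TTGCCAAA at 16 bases before the start, TGAGTCA at 25 bases before it and, as the TATA box on the other strand, TTTATA at 202 bases before it. A promoter of Aldh1a1 held TGACTCA and TTTGGCAA, one of Adh5 held TATAAA and that of Aldh1l1 held TTGCAGAA. The match of Adh5 was at 207 bases before the start. Its window (138436950 to 138437249) lies before the Adh5 locus, which starts at 138443093. The other Adh5 window (138442843 to 138443142), at the start of the locus, held 0 matches. No match was found for Adh1, Adh4, Aldh1b1, Aldh3a2 and Aldh8a1, which says only that these letters are not in these windows.

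Of the 15 other aldehyde dehydrogenases, 11 were tested. Aldh1a2, which makes retinoic acid, had a scaled FPKM of 0.879 to 2.01 in TAA mice and was at most 0.0832 in the others, so that it passed the minimum of 0.1 FPKM through TAA mice alone. Such genes were left out of the counts and medians of their lists, a choice made after the values were seen. The log2 difference of Aldh1a2 between TAA and control mice rested on the amount added, and was 3.36 with 0.1, 1.18 with 1 and 4.804 with 0.01. Of the other 10 genes, 2 rose and 5 fell in TAA mice (2 and 1 with FPKM as deposited, where the median went from -0.79 to -0.15, and 2 and 3 with quantile normalization). Among them were Aldh18a1 of proline synthesis (2.35), Aldh6a1 of valine degradation (-1.70) and Aldh9a1 of carnitine synthesis (-1.26). In recovery relative to TAA mice 2 rose and 2 fell, among them Aldh18a1 (-1.64), Aldh6a1 (1.47) and Aldh3b1 (-1.10), against 0 and 2 as deposited and 0 and 1 with quantile normalization, and the median of 0.57 became 0.0083 as deposited and 0.32 with quantile normalization. Of 3 further genes whose symbol begins with Adh, Adh6a and Adh6b were under the minimum. Adhfe1, which is not in the chromosome 3 cluster, was at -1.47 in TAA mice and 1.26 in recovery relative to TAA mice. It was a DEG in both comparisons but in neither as deposited.

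Of 6 genes that take part in ethanol oxidation or the use of its products, 2 rose and 3 fell in TAA mice (2 and 2 as deposited), with a median of -0.61 that turned to 0.033 as deposited and 0.31 with quantile normalization. Besides Cyp2e1, these were Acss3 (-2.28) and the catalase gene Cat (-1.26, but 0.28 with quantile normalization and -0.62 as deposited), which fell, and the acetyl-CoA synthetase gene Acss1 (1.24), which rose as Acss2 did. In recovery relative to TAA mice 3 rose and 2 fell (2 and 2 as deposited), and the median of 0.55 turned to -0.010 as deposited and -0.36 with quantile normalization. Of 28 genes of retinoid handling, 24 were tested, of which Rdh16f1 was above 0 in TAA 1 alone. Of the other 23, in TAA mice 6 rose and 5 fell (9 and 3 as deposited, 6 and 2 with quantile normalization), with a median of -0.064 that turned positive with 3 of the 4 other scalings and reached 0.56 as deposited. Among them, Dhrs9 (2.84) and Bco1 (1.95), which cleaves beta-carotene, rose, and the retinol dehydrogenase gene Rdh16 fell (-2.69). In recovery relative to TAA mice 4 rose and 4 fell, among them Rdh16 (2.15), Lrat (-1.79) and Rdh11 (-1.73). The counts were 2 and 8 as deposited, 4 and 8 with factors from genes of at least 10 FPKM and 1 and 4 with quantile normalization, and the median of 0.080 turned negative under the other scalings (-0.47 as deposited).

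Formaldehyde and folate metabolism, around Adh5 and Aldh1l1, was followed in 14 genes, of which 1 rose and 4 fell in TAA mice (3 and 0 as deposited, where the median turned from -0.59 to 0.033, and it was -0.20 with quantile normalization). With the scaling used here, the largest changes were in Ftcd (-1.29), Amt (-1.28), Fpgs (-1.26) and the thymidylate synthase gene Tyms (1.17). In recovery relative to TAA mice 5 rose and 1 fell (1 and 4 as deposited, where the median turned from 0.46 to -0.10, and it was 0.12 with quantile normalization), with Fpgs at 2.02 and Gldc at 1.52. Of 9 kynurenine pathway genes, to which Aldh8a1 belongs by function, 1 rose and 6 fell in TAA mice (1 and 3 as deposited), with a median of -1.47 that stayed negative under each scaling and was -0.84 as deposited. Afmid (-2.52), Aadat (-2.41), the tryptophan dioxygenase gene Tdo2 (-2.39) and Kynu (-1.55) fell the most with the scaling used here. With quantile normalization Kynu (-1.20) lay at the median of the 9 genes. In recovery relative to TAA mice 5 rose and, by limma, 0 fell (1 had an unadjusted p under 0.05 and was lower), but 1 fell under each of the 4 other scalings (4 rose and 1 fell as deposited). Acmsd, named after its values were seen, was at -0.90 (limma with Benjamini-Hochberg adjustment, adjusted p = 0.00413, lower in 3 of 3 recovery mice), short of a fold change of 2. Tdo2 was at 2.29 and Aadat at 2.24, and the median of 1.19 stayed positive under each scaling, but was 0.63 as deposited and 0.66 with quantile normalization. Of 5 genes around long-chain aldehydes, substrates of the product of Aldh3a2, Phyh (-2.31), Hacl1 (-1.93) and Sphk2 (-1.31) fell and Sphk1 (2.31) rose in TAA mice, with a median of -1.31 that stayed negative under each scaling and was -0.68 as deposited, where 2 fell. In recovery relative to TAA mice the same genes changed the other way (Phyh 2.12, Hacl1 2.198, Sphk2 1.77 and Sphk1 -2.13). As deposited, Aldh9a1 (-0.63), Cat (-0.62), Ftcd (-0.66), Amt (-0.64), Fpgs (-0.63), Kynu (-0.91), Sphk2 (-0.68) and Adhfe1 (-0.84) between TAA and control mice, and Aldh6a1 (0.91), Amt (0.70), Gldc (0.96) and Adhfe1 (0.70) between recovery and TAA mice, were short of a fold change of 2. With quantile normalization Aldh9a1 (-0.59), Cat (0.28), Acss1 (0.33), Ftcd (-0.63), Tyms (0.87) and Phyh (-0.94) between TAA and control mice, and Aldh6a1 (0.89), Aldh3b1 (-0.77), Acss1 (-0.60) and Phyh (0.91) between recovery and TAA mice, were no longer DEGs. Still DEGs, but moved by over 1.5 times, were Aldh6a1 (-1.06) and Tyms (1.78) in TAA mice as deposited and, with quantile normalization, Cyp2e1 (-2.22, from -3.65), Aldh6a1 (-1.02), Tdo2 (-1.34), Sphk1 (1.46) and Hacl1 (-1.28) in TAA mice and Cyp2e1 (1.87, from 3.16) and Tdo2 (1.40) in recovery relative to TAA mice. With 1 added in place of 0.1, Acss1 (0.45), Tyms (0.82) and Sphk1 (0.83) between TAA and control mice, and Acss1 (-0.46), Tyms (-0.92), Sphk1 (-0.78) and Aldh3b1 (-0.71) between recovery and TAA mice, were short of a fold change of 2, and Aldh3b1 was so without recovery 2 (-0.95) as well. Between recovery and TAA mice, Aldh3b1 and Acss1 were also not DEGs when treat was used with a fold change of 1.5. Aldh18a1 (1.34) and Dhrs9 (1.63) stayed DEGs in TAA mice with 1 added, and Aldh18a1 (-1.03) did so in recovery relative to TAA mice. Between recovery and control mice, Dhrs9 was a DEG at 1.98 (limma with Benjamini-Hochberg adjustment, adjusted p = 0.00902, higher in 3 of 3 recovery mice). It was not one with 1 added (0.998), with the replicate number as a block or when treat was used with a fold change of 1.5.

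Markers of cell types were read beside the members. Of the 7 hepatocyte markers, 6 were in the table (Alb was the most abundant), and they summed to 37542, 40911 and 36821 in control mice, 28633, 25156 and 21585 in TAA mice and 45956, 47840.1 and 48796 in recovery mice. TAA mice were the lowest, but as deposited their sums of 36869, 33222 and 29716 overlapped with the 31029.6, 34991 and 32346 of control mice. Of the 6 markers, 3 fell in TAA mice (1 with FPKM as deposited, and with quantile normalization 0 fell and 1 rose), and 3 rose in recovery relative to TAA mice (0 with quantile normalization and 2 under the 3 remaining scalings). The 6 cholangiocyte markers, led by Spp1, summed to 18.7, 15.7 and 21.0 in control mice, 443, 302 and 295 in TAA mice and 27.9, 29.6 and 38.4 in recovery mice. Among them, Cftr (at most 0.0462 FPKM as deposited outside TAA mice) passed the minimum through TAA mice alone. Of the other 5, 5 rose in TAA mice and 4 fell in recovery relative to TAA mice (5 as deposited). Epcam was the only marker called between recovery and control mice, at 1.65 (limma with Benjamini-Hochberg adjustment, adjusted p = 0.0310, higher in 3 of 3 recovery mice), but it was not called when any 1 of the 6 mice was left out, with 1 added (0.78), without a filter on low values, with the replicate number as a block or with treat. The 7 stellate cell markers, led by Dcn, summed to 72.3, 109.7 and 124 in control mice, 254, 210.0 and 269 in TAA mice and 101, 133 and 135 in recovery mice, and 5 rose in TAA mice and 4 fell in recovery relative to TAA mice (7 and 6 as deposited). Macrophage markers, led by Clec4f, summed to 40.4, 78.7 and 83.0 in control mice, 85.0, 79.0 and 75.7 in TAA mice and 88.9, 95.3 and 123 in recovery mice, with 2 of 6 higher in TAA mice (4 as deposited). The sums of TAA and control mice overlapped, but as deposited those of TAA mice, 104 to 109, were above the 33.4 to 72.9 of control mice. Those of endothelial cells, led by Clec4g, summed to 45.2, 82.7 and 80.8 in control mice, 64.8, 47.7 and 55.9 in TAA mice and 74.1, 75.9 and 83.8 in recovery mice, and 0 of 5 were DEGs in TAA mice by limma (1 had an unadjusted p under 0.05). The sums of control 1 were the lowest of the control mice in these last 3 lists. They were so too for lymphocyte (1.15), neutrophil (0.572) and skeletal muscle (0.153) markers. Control 1 was the highest control mouse in 9 of the 10 members, all but Adh7. Lymphocyte markers, led by Nkg7, summed to 1.15 to 2.16 in control, 2.69 to 3.85 in TAA and 0.750 to 2.47 in recovery mice (1 of 5 higher in TAA mice, with 3 as deposited and 0 with quantile normalization). Between recovery and TAA mice 0 of the 5 lymphocyte markers were DEGs by limma (2 had an unadjusted p under 0.05 and were lower), but 4 were lower as deposited, 2 with factors from genes of at least 10 FPKM and 1 with upper-quartile scaling. The sums of neutrophil markers, led by S100a8, were 0.572 to 3.45, 12.9 to 18.3 and 2.56 to 4.47 (2 of 2 tested higher in TAA mice and 2 lower in recovery relative to TAA mice). Of 7 markers of stratified or gastric epithelium, read because of the known site of Adh7, Krt13, Gkn1 and Muc5ac were at 0 in all mice. The sum of the 7, led by Sprr1a, was 6.68, 20.1 and 14.9 in TAA mice and at most 0.0831 in the others. Adh7 was lowest in TAA mice with the scaling used here, but as deposited its mean was 1.88 in TAA and 1.74 in recovery mice. Krt5 and Sprr1a passed the minimum of 0.1 FPKM through TAA mice alone and stood at 0 in each mouse of the control and recovery groups, so no count of changes is given. Skeletal muscle markers, led by Acta1, summed to 36.6 in TAA 3 and at most 0.426 in the others, and as 5 of these 6 genes passed the minimum through TAA mice alone, no count is given. The part of these cell types in the results was not tested.

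Over the 9 libraries, the gene most like a member in log2 level, by Pearson's r among 14084 genes, was Ube2t for Aldh1b1 (r = 0.997), Ldhd for Aldh2 (r = 0.997), Ddb1 for Adh1 (r = 0.982), Lmo7 for Adh4 (r = 0.978), Gpcpd1 for Adh7 (r = 0.988) and Gtpbp6 for Aldh1a1 (r = 0.976). The libraries fall into groups that differ, so these values mostly describe differences between groups, and they carry no test.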

How the data were processed

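Livers of 9 mice were analysed in the groups given by their labels. The authors mapped reads to mm10 (GRCm38) with HISAT2 2.2.1, counted them with featureCounts 1.5.0-p3, deposited FPKM and used DESeq2 for tests of their own. Each library was scaled by its median ratio to the mean library, and log2 values with 0.1 added were tested in R 4.3.3 by limma 3.58.1 (functions lmFit and eBayes, the latter with its trend option). Tested were 14094 genes whose mean FPKM was 0.1 or more, with 6 libraries per comparison and Benjamini-Hochberg adjustment over all of them. Sums and shares were compared by exact permutation. Python 3.11.15, pandas 2.3.3, numpy 2.4.6 and matplotlib 3.10.9 were used, and the steps were tested on simulated data. Depth is an estimate from the steps of low values: 54.3% to 66.6% of these were whole fragments within 0.08, where 16% would be by chance, and the rule for picking among multiples was set after the depths had been seen. Named genes were the members and, per pathway list, at most 4 DEGs with the largest change, of which some are not reported here. The members and lists were chosen with earlier results of these data known. Alternatives to the pseudocount, filter, scaling, libraries per fit, trend, threshold, test, block and set of mice were tried.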

Additional observations from a re-analysis of the deposited data

How the results depend on the processing

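Directions of members turned with the scaling between libraries and, for Adh4, with the mice left out, while counts of DEGs also moved with the pseudocount, filter, threshold and test, and the cause was not tested. Of 570 member fold changes over the alternatives, 514 kept their direction and call and 20 changed direction. With the direction unchanged, 22 lost and 14 gained a call. Other filters, libraries per fit, trend, threshold, test or block leave a fold change as it was, so its direction could not turn there. No member was called between recovery and control mice under any alternative. The 514 therefore include many values that could hardly change. Under quantile normalization alone, 7 changed direction, and with it unchanged 5 lost and 3 gained a call. Aldh1a1 both turned and became a DEG with quantile normalization, between TAA and control mice (1.02) and between recovery and TAA mice (-1.13). Between TAA and control mice, Adh4 (0.58), Adh5 (0.12), Aldh1a1 (0.29) and the Aldh sum (0.025) turned with FPKM as deposited, Adh4 (0.13) with upper-quartile scaling, Adh4 (0.67), Adh5 (0.31), Aldh1a1 (1.02), Aldh1l1 (0.20) and Cat (0.28) with quantile normalization, and Adh4 (0.30) and Aldh1a1 (0.015) with factors from genes of at least 10 FPKM, which were chosen after seeing the data. Adh4 also turned without control 1 or TAA 1, and ranged from -0.13 to 0.057 with 1 mouse left out (without TAA 1 it was 0.016). Between recovery and TAA mice, Adh5 (-0.19), Adh7 (-0.10), Aldh1a1 (-0.50) and the Aldh sum (-0.090) turned as deposited, Aldh1a1 (-0.10) with upper-quartile scaling, Adh5 (-0.40), Aldh1a1 (-1.13) and Aldh3a2 (-0.065) with quantile normalization, and Aldh1a1 (-0.25) with factors from genes of at least 10 FPKM.

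Member calls between TAA and control mice were 1 higher and 3 lower. They became 2 and 0 as deposited (among all genes 4382 and 421) and 3 and 1 with quantile normalization (among all genes 1597 and 1311). They were 2 and 6 by adjusted p alone (among all genes 3975 and 3708) and 1 and 1 under upper-quartile scaling (among all genes 2798 and 851). With factors from genes of at least 10 FPKM they were 1 and 0 (among all genes 3303 and 659). The 2 higher calls between recovery and TAA mice became 0 as deposited and with quantile normalization (among all genes 409 and 1171). They also became 0 with factors from genes of at least 10 FPKM (among all genes 594). They were 1 with upper-quartile scaling and 5 by adjusted p alone (among all genes 758 and 3453). The 2 lower calls became 3 as deposited, 4 with quantile normalization and 3 by adjusted p alone (among all genes 3728, 1407 and 3668). DEGs among all genes, 3520, 3017 and 140 in the 3 comparisons, were 1780, 1460 and 80 with 1 added, 7683, 7121 and 381 by adjusted p alone and, in the first pair, 2204 and 1895 with a mean FPKM of at least 1. Between recovery and control mice they were 48 without a filter, 235 with 9 libraries in a fit, 85 without a trend and 8 with treat at a fold change of 1.5. The share of DEGs that were higher was 67.9%, 33.2% and 58.6%, and became 91.2%, 9.89% and 69.3% as deposited, 83.4% and 17.4% in the first pair with factors from genes of at least 10 FPKM and 54.9% and 45.4% with quantile normalization. Between recovery and control mice it was 46.9% without recovery 2, 38.5% without recovery 3 and 37.5% with treat. In the first pair it was 50% and 51.3% with 1 added and 53.4% and 48.5% when genes under a mean of 1 FPKM were left out. The median of all genes was 0.63 and -0.55 as deposited, 0.36 and -0.31 with factors from genes of at least 10 FPKM and 0.20 and -0.16 with upper-quartile scaling.

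As deposited, with upper-quartile scaling and with factors from genes of at least 10 FPKM, the Adh sum differed by 0.97, 0.52 and 0.69 between TAA and control mice and by -1.30, -0.90 and -1.05 between recovery and TAA mice, and the change left for Aldh2 was -27.4%, -9.43% and -14.1%. With the latter pair of scalings the Aldh sum differed by -0.42 and -0.25, and by 0.31 and 0.16. The change left for Aldh3a2 was 83.1% as deposited. With 1 mouse left out, lower member calls were 1 to 2 between recovery and TAA mice, DEGs between recovery and control mice were 32 to 106 (32 without recovery 2, 106 without recovery 1), and the change left for Aldh2 was -8.83 to -2.55 percent.

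With the replicate number as a block, DEGs were 3517, 3026 and 17 in the 3 comparisons and no member call changed. Deviations from group means correlated at r of -0.070 to 0.12 between same-numbered mice and of -0.11 to 0.13 between others, and a library was most like one of its own number in 3 of 18 cases, so no pairing was assumed.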
